A study of Mus musculus with 2 samples.

Results

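The comparison described here is that of 2 antibodies to mouse GITR that were both named agonists by the submitters and differed in the Fc variant: GA-aFuc, called Fc-enhanced, against N297A, called Fc-null. Its members were the annotated cells of mice given either antibody, 9397 of 19210 cells, from 6 of 12 mice (3 per antibody). GITR (Tnfrsf18) is a costimulatory receptor of T cells, and regulatory T cells (Tregs) carry much of it. An IgG antibody can bind its target with its variable arms and, with its Fc part, Fcγ receptors on macrophages, monocytes and NK cells. Loss of the N-linked glycan at the N297 site of IgG removes most Fcγ receptor binding, and removal of fucose from that glycan raises binding to FcγRIIIa. Comparing the variants asks what Fc binding adds to an antibody that is already called an agonist.

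All mice were hFcgR animals, which carry human Fcγ receptors, and all bore subcutaneous tumours of MC38, a transplantable mouse colon carcinoma line, so both the line and the host are shared by every group. Their age and sex are not given in the labels. Mice were randomised by tumour size and injected intraperitoneally 2 times, 3 days apart, with 100 µg of an in-house antibody with a human IgG1 Fc, and were sampled 4 days post treatment. The other groups were Untreated mice, for whom the labels name PBS, and mice given GITR/Syn GA-aFuc, an Fc-enhanced antibody called non-agonist. Leukocytes were sorted for CD45 and sequenced in 2 hashed droplet libraries. Library 1 held 1 GA-aFuc mouse (1432 cells) and 2 N297A mice (1490 and 1421 cells), and library 2 held 2 GA-aFuc mice (1723 and 1540 cells) and 1 N297A mouse (1791 cells). The replicates are numbered GA-aFuc 1 and N297A 1 and 2 in library 1, and GA-aFuc 2 and 3 and N297A 3 in library 2.

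Shares of cells were compared over all 3 mice of each antibody. Expression was measured in library 2 alone, in 5054 cells of 3 mice, so each difference in expression below rests on the same single N297A mouse and clusters are not independent replicates of it. GA-aFuc mice 2 and 3 had median depths of 13084 and 10461 UMIs per cell, and the N297A mouse 10913. Xist, the transcript of the inactive X chromosome, was at 567 CPM (UMI counts scaled to a common library total) in GA-aFuc mouse 2 and at 1.92 and 1.68 CPM in GA-aFuc mouse 3 and N297A mouse 3, so GA-aFuc mouse 2 stands apart as the female of the 3. The markers of each annotated cell type had their highest summed level in that type, except those of monocytes, which were higher in pDC (10015 against 5347 CPM). Of all barcodes, 34 occur in both libraries.

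Only the Treg cluster, of all author clusters tested, passed the test for a different share of cells, and it was smaller under GA-aFuc. Tregs, which restrain other T cells and express GITR, are cluster 50, the only author cluster of that type, and it is led by Itgb8 and Foxp3. Its 10 leading genes also include H2-Eb1, H2-Aa, H2-Ab1 and Cd74, genes of MHC class II. Summed macrophage markers in Tregs were at 767 and 1366 CPM in GA-aFuc mice 2 and 3. They were at 4799 CPM in N297A mouse 3 and 17540 CPM in the Untreated mouse of library 2. The part of myeloid transcripts in this cluster was not tested. Cluster 50 was 0.209%, 0.116% and 0.0649% of cells in GA-aFuc mice 1 to 3 and 1.41%, 1.69% and 0.447% in N297A mice 1 to 3. Every GA-aFuc mouse lay below every N297A mouse, with 6 against 53 cells in all. The log2 difference was -2.68 ± 0.47 (SE, n = 3 mice per antibody), with an adjusted p of 0.00425 in edgeR's quasi-likelihood test over 58 clusters. It was the only cluster past the threshold of 0.05, which is 1.72% of those tested. Without GA-aFuc mouse 1 the adjusted p was 0.118. The difference was -2.89 in library 1 alone and -2.30 in library 2 alone, the latter from 3 cells under GA-aFuc and 8 under N297A. A smaller share cannot be told apart from poorer recovery of these cells.

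The other clusters with no overlap between the 3 GA-aFuc and 3 N297A mice were myeloid and NK clusters, and none passed the test. A total of 3 clusters were higher in every GA-aFuc mouse (5.17% of 58) and 8 were lower, cluster 50 included (13.8%). Monocyte cluster 0 was 3.56%, 4.47% and 6.17% of cells under GA-aFuc and 2.82%, 2.89% and 3.52% under N297A. Its log2 difference was 0.52 ± 0.23 (SE), with an adjusted p of 0.376 in the edgeR test. The cluster is led by Mmp12, Inhba, Cxcl3, Nos2 and Slc7a2, and 8 of its 10 leading genes were called between the antibodies when all monocytes were summed, so its share and these genes are not separate findings. Counted among monocytes, cluster 0 was 15.7%, 20.3% and 17.9% under GA-aFuc and 9.61%, 10.5% and 9.71% under N297A.

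The remaining higher clusters were macrophage cluster 28, at 2.51%, 1.92% and 1.62% against 1.54%, 1.48% and 1.45%, and macrophage cluster 45, at 1.61%, 1.04% and 1.10% against 0.940%, 0.844% and 0.949%. Cluster 45 is led by the cell cycle genes Ccnb2, Cdkn3 and Birc5. Of the lower clusters, 4 were monocytes. Cluster 29, led by Cadm1 and Ccl3, was 1.26%, 0.813% and 1.23% under GA-aFuc and 1.88%, 2.04% and 2.29% under N297A (log2 difference -0.89 ± 0.28 SE, edgeR adjusted p 0.184). Cluster 1 lay between 2.84% and 3.31% against 3.94% to 4.58%. Cluster 49, led by the type I interferon response genes Rsad2 and Cmpk2, lay between 0.522% and 0.909% against 1.13% to 1.23%. Cluster 54 lay between 0.455% and 0.489% against 0.633% to 1.01%.

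NK clusters 19 and 26 were also lower in every GA-aFuc mouse. Cluster 19 was 1.89%, 1.92% and 1.30% against 2.68%, 2.81% and 2.51%, and cluster 26 was 1.61%, 1.74% and 0.455% against 1.88%, 2.46% and 2.01%. The 10 leading genes of both include transcripts typical of myeloid cells (Hmox1 and Chil3 in cluster 19, Arg1 and Ccl24 in cluster 26). The last was cDC2 cluster 64, led by histone and cell cycle genes, with 5 against 12 cells. With labels permuted within library, 9 arrangements exist and the exact two-sided permutation test cannot go below 0.111. The same test gave adjusted p values of 0.586 for these clusters.

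**Figure D1:**
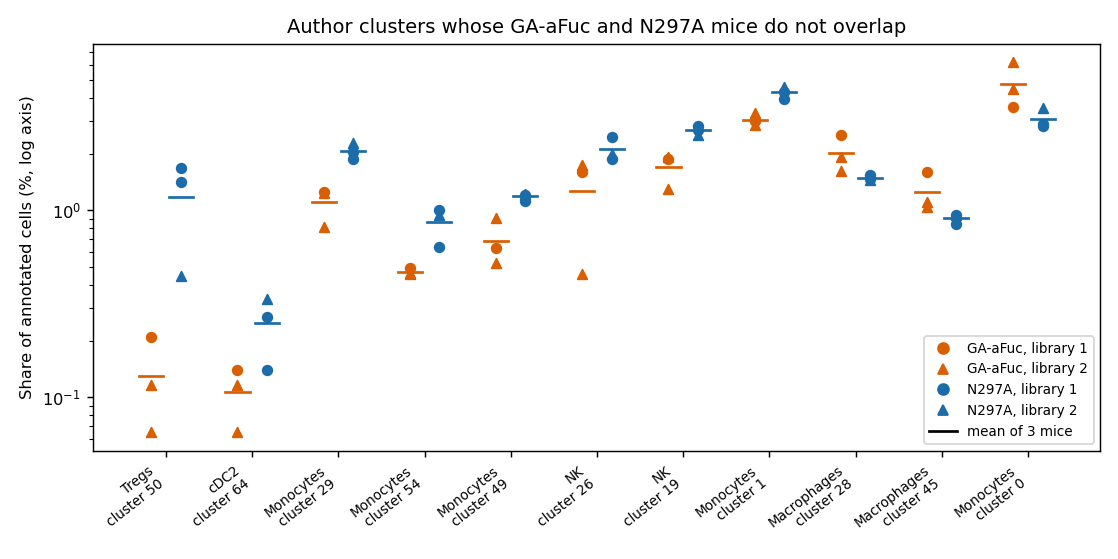
Share of annotated cells (percent, log axis) in each author cluster whose 3 GA-aFuc and 3 N297A mice do not overlap. Each point is a mouse, its shape gives the library, and the line is the mean of 3 mice. The Treg cluster 50 shows the widest gap, 0.0649% to 0.209% against 0.447% to 1.69%, and the gaps of the other clusters are narrower.

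In expression, arginase 1 (Arg1) was called higher under GA-aFuc in more clusters than any other gene, all of them monocyte or macrophage clusters, and other genes of alternative activation were called beside it. Raw counts were summed per mouse in the 40 clusters with at least 10 cells in each of the 3 mice, and the other 18 clusters, with all those of CD4 T cells, Tregs, cDC1, mregDC and pDC among them, were not tested. Over 268909 tests of a gene in a cluster, edgeR called 173 higher (0.0643%) and 45 lower (0.0167%) under GA-aFuc. Monocytes held 105 of the higher calls in 12 clusters and macrophages 60 in 21. DESeq2 called 52 higher and 4 lower. In clusters 21, 25, 45 and 56 edgeR gave each gene the spread of a shared trend over expression level, with no part of its own. This is what 1 spread for all genes means below, and 93 calls fell in these clusters. The calls covered 126 genes, of which 89 were called in 1 cluster only.

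Arg1 encodes arginase 1, which cleaves arginine to ornithine and urea and marks alternatively activated and suppressive myeloid cells. Its log2 difference was positive in 34 of 34 clusters tested, and both GA-aFuc mice lay above the N297A mouse in 30 of them, where 33.8% of all tests had that order and 34.1% the opposite one. It was called in 18 clusters, 14 of them outside the 4 clusters with 1 spread, and DESeq2 called it in 8. A gene can pass the filter on low counts through the GA-aFuc mice alone. With no such filter, the log2 difference of Arg1 was positive in 36 of 40 clusters. The median log2 difference was 3.46 over the 34 clusters, from 1.28 to 5.67, and 3.41 with clusters near 0 counts at their bound. The N297A mouse ranged from 0 to 655 CPM (median 43.2).

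In monocyte cluster 0 Arg1 was at 3271 and 4110 CPM in GA-aFuc mice 2 and 3 and at 225 CPM in the N297A mouse. The log2 difference was 4.04 ± 0.36 (SE), with an adjusted p of 0.000979 in edgeR's quasi-likelihood test over the genes of the cluster. In monocyte cluster 22 it was at 1139 and 2295 against 33.6 CPM, a log2 difference of 5.67 ± 0.58 (edgeR adjusted p 5.71e-05). In macrophage cluster 13 Arg1 was at 209 and 197 against 12.0 CPM (edgeR adjusted p 1.13e-07), and in macrophage cluster 11 at 1449 and 3957 against 298 CPM (edgeR adjusted p 0.0291). The call of macrophage cluster 56 rests on 37, 1 and 1 UMIs in GA-aFuc mice 2 and 3 and the N297A mouse. GA-aFuc mouse 3 was above mouse 2 in 27 of 34 clusters. Without GA-aFuc mouse 2, which leaves males only in this contrast, Arg1 was called in 26 of 31 clusters, and without mouse 3 in 19 of 29, but 1 spread for all genes was fitted in 33 of 37 and 37 of 38 clusters under these settings. The Untreated mouse lay below both GA-aFuc mice in 26 of 34.

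**Figure D2:**
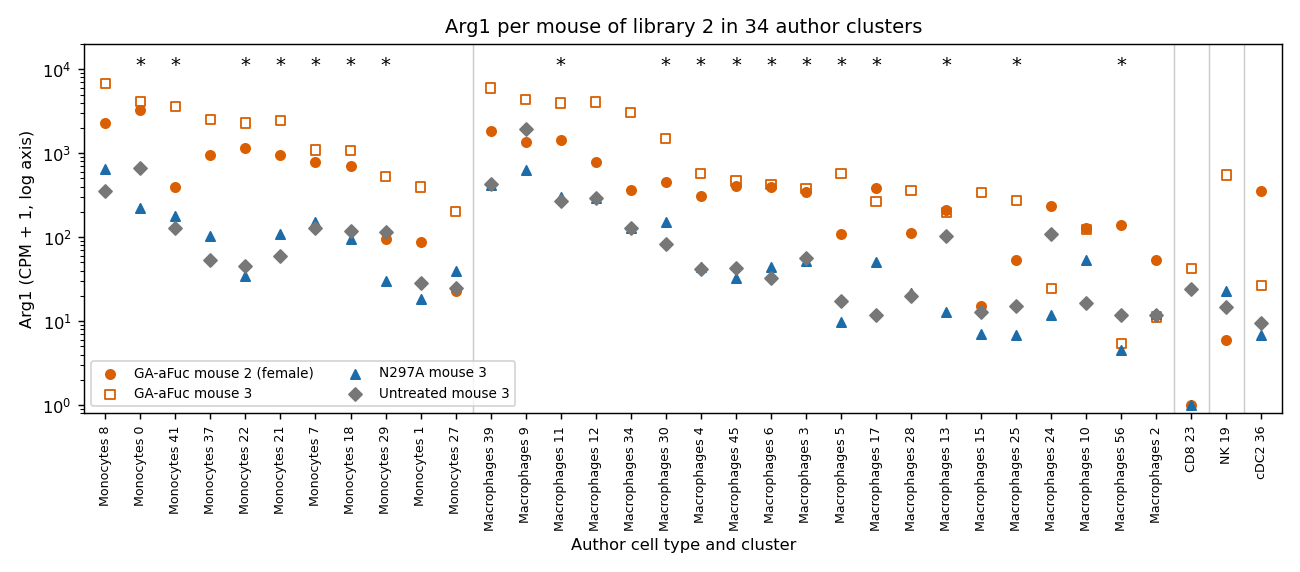
Arg1 level (CPM + 1, log axis) in each author cluster tested, with 1 point per mouse of library 2 (GA-aFuc mice 2 and 3, N297A mouse 3, Untreated mouse 3). Stars mark clusters with a call. The GA-aFuc points lie above the N297A point in 30 of 34 clusters, and monocyte cluster 0 reaches 3271 and 4110 against 225 CPM.

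The share of cells with Arg1 was larger as well. With each cell thinned to 3000 UMIs, 38.8% and 52.9% of monocytes in GA-aFuc mice 2 and 3 had an Arg1 UMI, against 16.4% under N297A and 18.1% without antibody. The shares in macrophages were 23.2% and 38.5% against 11.1% and 10.8%. Unthinned, monocytes were at 47.6% and 59.6% against 26.2%, and macrophages at 40.0% and 49.3% against 22.3%. CD8 T cells, which should lack the transcript, gave 2.80% and 3.28% under GA-aFuc and 4.69% under N297A after thinning. Their median depths were 8041, 8586 and 6696 UMIs, beside 9624, 8343.5 and 8695 in monocytes. The shares in myeloid cells lay above those in CD8 T cells in all 3 mice. Those CD8 shares come from 143, 61 and 64 cells, too few to compare the antibodies. NK cells thinned alike gave 2.46% and 6.38% under GA-aFuc and 4.72% under N297A, from 122, 47 and 127 cells. In GA-aFuc mouse 3 NK cells held 162 Arg1 UMIs before thinning, 99.4% of them in the top 5% of cells. The part of transcripts from other cells was not tested.

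The gap in Arg1 differed between monocyte clusters in 1 case. In cluster 22 the log2 difference exceeded that of all other monocytes by 2.20 ± 0.37 (SE, edgeR adjusted p 6.4e-06), and in cluster 0 by 1.02 (edgeR adjusted p 0.336). Over the 6 clusters with the most calls, this test of the cluster against the rest of its type called 57 of 72132 gene tests (0.079%).

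Other genes of the same list were called higher too. The list holds 16 genes of alternative activation and arginine handling, and 44 of its 319 gene and cluster tests were called higher and 0 lower. Its median log2 difference was 2.49 (2.10 with genes at 0 in the N297A mouse at their bound), beside 0.02 for all genes. The N297A mouse was at 0 in 43 of the 319 tests and the GA-aFuc mice in 0. Genes can pass the filter on low counts through the GA-aFuc mice alone, so this median is not independent of the filter. Of the 44 calls, 18 are those of Arg1 above, 8 are of Mrc1, 6 of Slc7a2, 6 of Ccl24, 5 of Pdcd1lg2 and 1 of Chil3. The other genes of the list had no call. The list was chosen with earlier results of these data known, so its counts are not independent of those results. Of the 44 calls, 25 were in monocytes and 19 in macrophages, and no call fell in CD8 T cells, NK cells or cDC2. Monocytes held 112 of the 319 tests and macrophages 180, against 7 in CD8 T cells, 7 in NK cells and 13 in cDC2. With so few tests there, the lack of calls does not limit the difference to monocytes and macrophages. In cDC2 the median log2 difference of the list was 1.48, beside 0.03 for all genes.

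Mrc1, the mannose receptor CD206, was called higher in 8 of 34 clusters, and by DESeq2 in 5. In macrophage cluster 30 GA-aFuc mice had 432 and 909 CPM and the N297A mouse 124 CPM, a log2 difference of 2.43 ± 0.42 (SE, edgeR adjusted p 0.00622). In monocyte cluster 0 it was at 328 and 483 against 5.86 CPM, the last from 3 UMIs, a ratio of 69.1 with a 95% counting interval from 23.5 to 336. In monocyte cluster 21 the mice overlapped, at 9.28 and 198 against 26.4 CPM.

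Slc7a2, a carrier that brings arginine into the cell, was higher in both GA-aFuc mice in 26 of 26 clusters. It was called in 6, and by DESeq2 in 2. With no filter on low counts, its log2 difference was positive in 35 of 39 clusters. Cluster 0 had 591 and 746 against 37.1 CPM, a log2 difference of 4.16 ± 0.74 (SE, edgeR adjusted p 0.0495). In monocyte clusters 21 and 41 the N297A mouse had 0 UMIs, and Slc7a2 was at least 20.5-fold and at least 21.3-fold higher under GA-aFuc, with the floor at 3 UMIs in the N297A mouse.

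Pdcd1lg2, the gene of PD-L2, a ligand of PD-1, was called higher in 5 of 27 clusters, and by DESeq2 in 1. It was at 243 and 342 against 21.5 CPM in cluster 0, a log2 difference of 3.76 ± 0.50 (SE, edgeR adjusted p 0.0215), and at 116 and 188 against 13.4 CPM in monocyte cluster 18. Ccl24, the chemokine eotaxin-2, was called in 6 of 20 clusters, and by DESeq2 in 1. In these 6 calls the N297A mouse had 0 UMIs in 1 and 1 to 3 UMIs in 4. A stricter filter on low counts left 2 clusters tested for Ccl24, with 0 calls. Monocyte cluster 22 had 288 and 799 against 3.36 CPM. Ccl24 was carried by few cells: in 3 of its 6 calls 1 cell held at least 50% of the UMIs of the GA-aFuc mice, as against 1 of 18 calls for Arg1 and 0 of 8 for Mrc1.

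Genes outside that list were called higher in monocytes too. Clec7a, the β-glucan receptor Dectin-1, was at 3432 and 3110 against 750 CPM in cluster 0 (log2 difference 2.12 ± 0.33 SE, edgeR adjusted p 0.0381) and was called in 3 clusters. Nrg1, a ligand of ErbB receptors, was called in 4 monocyte clusters, with 1047 and 712 against 65.0 CPM in cluster 27. Cd36, a scavenger receptor for lipids, was called in 3 of 33 clusters, but in cluster 21 its log2 difference turned to -0.015 with equal cells per mouse and to -0.29 without GA-aFuc mouse 3. Nos2, the inducible nitric oxide synthase, uses the same amino acid as arginase, and it was chosen here after its values were seen. It was at 545 and 688 against 125 CPM in cluster 0 (log2 difference 2.30 ± 0.36 SE, edgeR adjusted p 0.0381).

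Related lists had fewer calls. Matrix, coagulation and growth factor genes had 8 higher and 0 lower calls (median 0.49), checkpoint ligands of myeloid cells 8 and 0 (0.28), and lipid-associated macrophage genes 5 and 1 (0.18). The 8 checkpoint calls are Pdcd1lg2 (5) and Cd274 (3), and all are counted in another list too, those of Pdcd1lg2 among the 44 above and those of Cd274 among the interferon gamma genes. Glycolysis and hypoxia genes had 4 higher and 0 lower calls, all 4 in monocytes. Both GA-aFuc mice were above the N297A mouse in 67.3% of tests of that list in monocytes, 69.6% in CD8 T cells, 58.3% in cDC2, 50% in NK cells and 31.8% in macrophages. Over all genes and all clusters both were above in 33.8% of tests and both below in 34.1%. The proliferation, mitochondrial transcript and MHC class I lists had 0 calls. In monocytes the median log2 difference of mitochondrial transcripts was 0.22, above 0 in 11 of 12 clusters, with both GA-aFuc mice higher in 48.3% of tests and lower in 5.96%, and in macrophages it was -0.03. The part of these transcripts in the monocyte result was not tested.

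Markers of other cells differed between the mice as well. Summed neutrophil markers in monocytes were at 67.6 and 363 CPM in GA-aFuc mice 2 and 3 and at 48.3 CPM in the N297A mouse. In GA-aFuc mouse 3 cluster 42 stood at 5819 CPM and the other monocyte clusters at 46.1 to 386 CPM, with cluster 0 at 307 CPM and cluster 22 at 75.9 CPM. Arg1 was not tested in cluster 42. Summed monocyte markers in macrophages were at 162 and 828 against 295 CPM. In GA-aFuc mouse 3 they were at 1590 to 4393 CPM in clusters 9, 12, 34 and 39, where Arg1 was not called, and at 120 to 978 CPM in the other macrophage clusters, against 74.5 to 689 CPM in the N297A mouse. In cluster 3, where Arg1 was called, they were at 184 and 271 against 689 CPM. That sum includes Ly6c2, which was called lower there. In cluster 11, where Arg1 was called too, monocyte markers were at 168 and 978 against 180 CPM. Macrophage markers in macrophages were at 23407 and 18874 against 22441 CPM. The part of these markers in the result was not tested further.

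**Figure D3:**
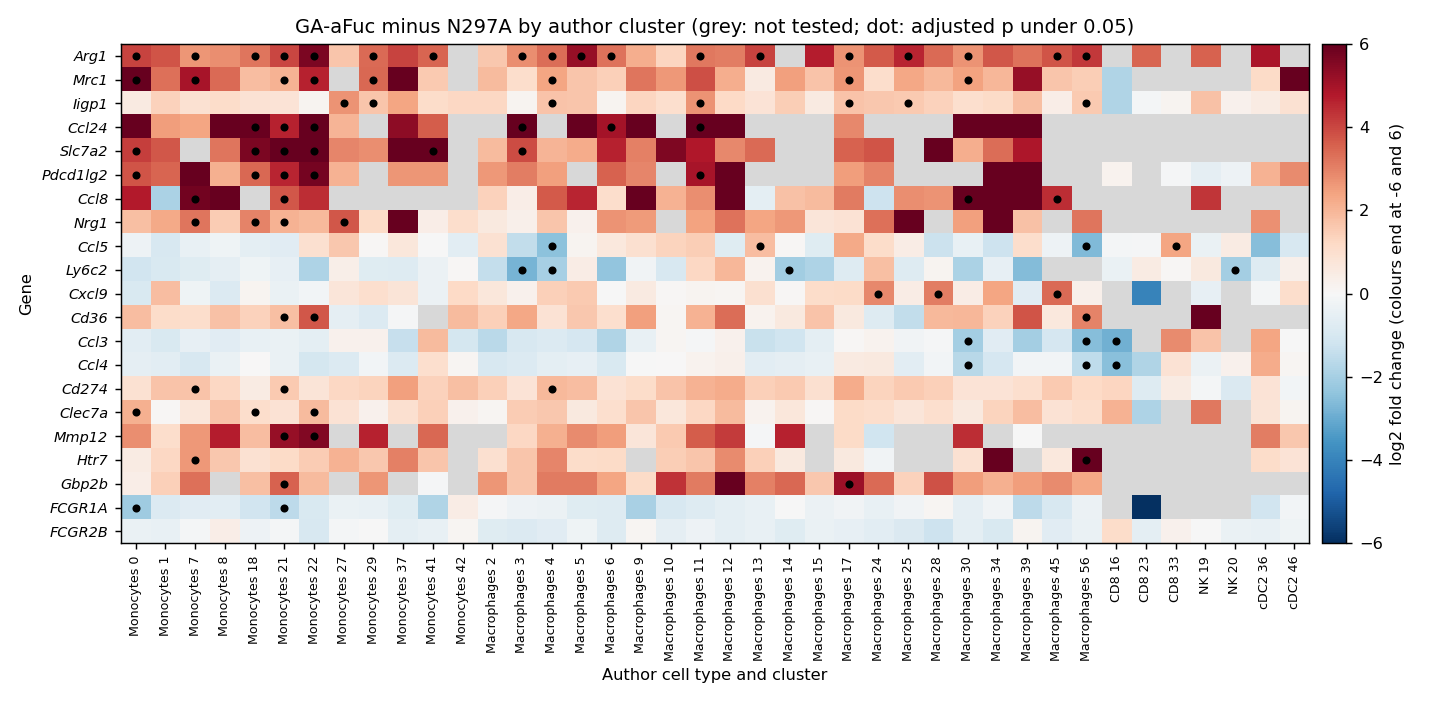
Log2 difference in expression, GA-aFuc minus N297A, for the genes called in the most clusters and 2 FCGR genes (rows) in the author clusters tested (columns). Xist, which is among the genes called in the most clusters, was left out. Grey cells were not tested, dots mark calls, and colours end at -6 and 6. Arg1, Mrc1, Slc7a2, Ccl24 and Pdcd1lg2 account for 43 calls, all higher, in monocytes and macrophages.

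Genes induced by interferon gamma formed another group, with 15 higher and 2 lower calls in 697 tests. Interferon gamma is the T and NK cell cytokine that raises antigen presentation, guanylate-binding proteins and the chemokines Cxcl9 and Cxcl10 in myeloid cells. The list's median log2 difference was 0.52 over all clusters and 0.74 in macrophages, where both GA-aFuc mice were higher in 66.6% of tests. That order held in 33.8% of tests over all genes and all clusters. In NK clusters the median was -0.51.

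Iigp1, an interferon-induced GTPase, was called higher in 7 of 40 clusters. In monocyte cluster 27 it was at 1069 and 815 CPM under GA-aFuc, 145 CPM under N297A and 680 CPM in the Untreated mouse, and the log2 difference from N297A was 2.68 ± 0.37 (SE, edgeR adjusted p 0.000782). In macrophage cluster 11 it was at 670 and 386 against 81.5 CPM, with the Untreated mouse at 475 CPM. Cxcl9, which attracts T cells through CXCR3, was called in 3 macrophage clusters. In cluster 28 it was at 1471 and 654 against 128 CPM, with the Untreated mouse at 1829 CPM. In cluster 45 the GA-aFuc mice were at 1642 and 54.9 against 80.6 CPM, and without GA-aFuc mouse 2 the log2 difference of Cxcl9 turned to -0.55. DESeq2 kept none of the 3 Cxcl9 calls. Cd274, which encodes PD-L1, was called in 3 of 40 clusters and positive in 36, for example at 649 and 810 against 246 CPM in monocyte cluster 21.

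The Untreated mouse lay in a different place for each of these groups of genes. For 13 of the 15 interferon gamma calls it lay at or above the lower GA-aFuc mouse. The N297A mouse was the lowest of these mice there, except for Cxcl9 in cluster 45. Of the 15 calls, 1 was also called between GA-aFuc and Untreated. For the 44 calls of the alternative activation list the Untreated mouse lay at or above the lower GA-aFuc mouse in 3, between in 24 and at or below the N297A mouse in 17, and 32 were also called between GA-aFuc and Untreated. The comparisons share the GA-aFuc mice, and the Untreated group is also a single mouse.

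**Figure D4:**
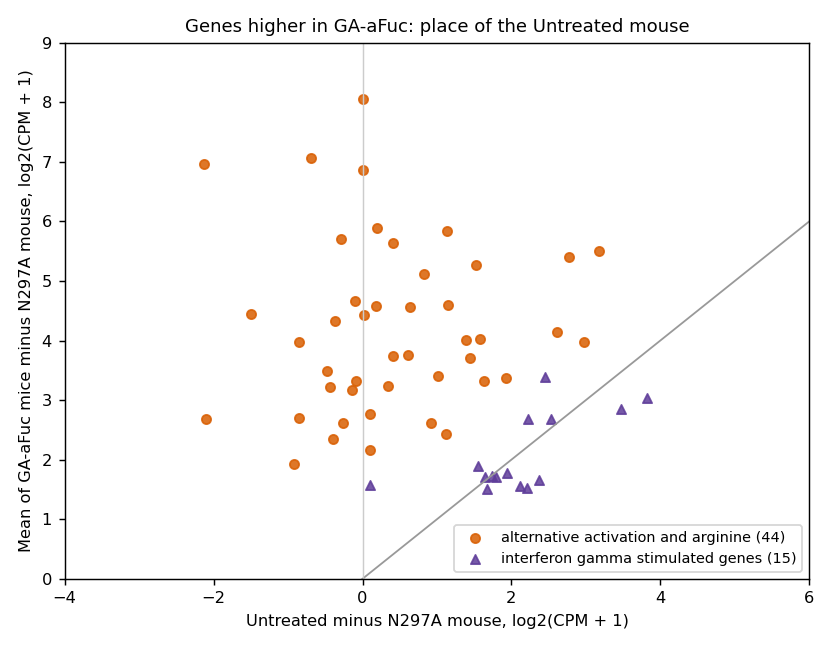
Each point is a gene called higher under GA-aFuc in 1 cluster, from the alternative activation list (44, circles) or the interferon gamma list (15, triangles). The x axis is the Untreated mouse minus the N297A mouse and the y axis the mean of the GA-aFuc mice minus the N297A mouse, both in log2(CPM + 1), and on the diagonal line Untreated equals the GA-aFuc mean. The triangles lie near the diagonal except 1, and the circles lie above it.

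Type I interferon response genes had 0 higher calls and 1 lower call in 737 tests, with a median log2 difference of -0.14, and of -0.27 in monocytes. Both GA-aFuc mice were lower in 91.4% of the tests in NK clusters (median -1.01). Over all genes and all clusters 34.1% of tests had that order. These values are for 2 NK clusters and the same 3 mice.

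Inflammatory cytokine and chemokine genes had 4 higher and 12 lower calls in 568 tests, with 10 of the lower ones in macrophages. For 6 of the 12 lower calls the Untreated mouse lay at or below the higher GA-aFuc mouse, and for 6 it lay between. Of the 12, 2 were also called between GA-aFuc and Untreated, and 6 were called between N297A and Untreated. Macrophage cluster 56 (12, 12 and 15 cells in GA-aFuc mice 2 and 3 and the N297A mouse) is led by Cenpf, Ube2c and Plk1, genes of cell division. Ccl3, an inflammatory chemokine, was at 30.1 and 102 CPM there under GA-aFuc, against 376 CPM under N297A (log2 difference -2.54 ± 0.36 SE, edgeR adjusted p 6.54e-09). The MHC class II gene H2-Ab1, which serves antigen presentation to CD4 T cells, rose in this cluster, at 2765 and 2685 against 815 CPM (log2 difference 1.74 ± 0.27 SE, edgeR adjusted p 3.22e-07). H2-Eb1, H2-Aa and Cd74 were called there too, all 4 MHC class II calls of the comparison, and the Untreated mouse was above both GA-aFuc mice for each. Cluster 56 is 1 of the clusters with 1 spread for all genes.

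Ly6c2, a marker of inflammatory monocytes, was lower in macrophage clusters 3, 4 and 14. In cluster 3 it was at 29.9 and 75.4 against 330 CPM, a log2 difference of -2.80 ± 0.46 (SE, edgeR adjusted p 0.00679). Gpr183, an oxysterol receptor that guides cell position in lymphoid tissue, was negative in 36 of 39 clusters and called lower in 2. Ccl5, a chemokine of T cells and activated macrophages, went both ways: macrophage cluster 13 had 331 and 183 against 73.4 CPM, and macrophage cluster 4 had 109 and 20.9 against 377 CPM, with 58.5% of the N297A UMIs of cluster 4 in 1 cell.

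In the lymphoid clusters few genes were called, and few tests were made. Calls were 0.0971% of 13382 tests in CD8 T cells and 0.0526% of 11409 in NK cells. The shares were 0.0499% of 162445 tests in macrophages and 0.162% of 72322 in monocytes, so the CD8 share was not below that of macrophages. Treg identity genes had 0 calls in 131 tests, all outside the untested Treg cluster, and genes of dendritic cell maturation and crosstalk 0 in 352. Cytotoxic effector genes had 2 higher calls (Gzma and Gzme in NK cluster 20) and 1 lower call (Ifng in CD8 cluster 16). T cell exhaustion genes had 0 calls in CD8 T and NK clusters, and 2 higher calls, both of Entpd1, in macrophages. Of the CD4 helper and costimulation genes, Il7r was called higher in monocyte cluster 29 and 1 gene, Ifng, lower in CD8 T cells. NK cluster 20 had 3 higher and 3 lower calls. Gzma, a cytotoxic granule protease, was at 6096 and 5210 CPM under GA-aFuc and 2821 CPM under N297A (log2 difference 1.0 ± 0.17 SE, edgeR adjusted p 0.00644), with the Untreated mouse at 4098 CPM. Ifitm2, an interferon-induced membrane protein, was at 511 and 715 against 173 CPM. Ly6c2 was lower in this cluster, at 62.5 and 20.2 against 191 CPM.

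CD8 T cells had 5 higher and 8 lower calls, and 6 of the 8 lower ones rest on 1 N297A cell each for at least 50% of the UMIs. In cluster 16 Ifng was at 259 and 418 against 1292 CPM (log2 difference -1.96 ± 0.32 SE, edgeR adjusted p 0.00985), but 86.2% of the N297A UMIs came from 1 of 21 cells. The corresponding shares were 90.3% for Ccl3 and 86.4% for Ccl4. With equal cells per mouse the log2 differences of Ccl3 and Ccl4 in cluster 16 turned to 0.19 and 0.40. In cluster 23 the complement genes C1qb and C1qc were lower, with 77.9% and 84.4% of the N297A UMIs in 1 cell, and the summed macrophage markers of that cluster were at 542 and 783 CPM against 2635 CPM. The inhibitory NK receptor genes Klra1 and Klra7 were at least 6.78-fold and at least 12.6-fold higher in cluster 23, with 0 UMIs in the N297A mouse (floor 3 UMIs). These Ly49 genes are near-identical copies, so reads can be split between them. In cluster 33 Ccl5 was at 1685 and 1238 against 282 CPM, with the Untreated mouse at 2851 CPM, and Ifitm1 at 1930 and 1928 against 719 CPM.

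The receptors that the antibodies themselves bind were tested in few places and had few calls. The human genes FCGR1A, FCGR2A, FCGR2B, FCGR3A and FCGR3B had 0 higher and 2 lower calls in 196 tests (median log2 difference -0.14). Over all genes 45 of 268909 tests (0.0167%) were called lower, a smaller share. FCGR1A, the high-affinity receptor for IgG, was lower in monocyte cluster 0, at 19.4 and 23.7 against 95.7 CPM (log2 difference -2.14 ± 0.38 SE, edgeR adjusted p 0.0495). It was lower in monocyte cluster 21 too, at 74.2 and 71.6 against 217 CPM, and negative in 34 of 36 clusters. With cells thinned to 3000 UMIs, 21.7% and 15.5% of monocytes had an FCGR1A UMI against 26.4% under N297A. In macrophages the shares were 42.1% and 26.6% against 42.1%, so only GA-aFuc mouse 3 was lower there. FCGR2B, the inhibitory receptor, was negative in 34 of 40 with no call. FCGR3A and FCGR3B are near-identical in sequence, so their separate counts are uncertain. The 17 genes of Fc receptor signalling and phagocytosis had 0 calls in 651 tests, with a median of -0.03.

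Tnfrsf18 was tested in 7 clusters and called in none. On the scale of all UMIs of the cells it was at 257 and 280 CPM in CD8 T cells of GA-aFuc mice 2 and 3 and at 225 CPM in those of the N297A mouse. Tregs had 307 and 1503 against 1029 CPM, from 2, 1 and 8 cells. These levels do not order the groups. Foxp3 and Tnfsf18, the GITR ligand, could be tested in no cluster. The 33 Foxp3 UMIs of the N297A mouse's Tregs stood beside 0 in the 3 Tregs of the GA-aFuc mice, and CD4 T cells held 0, 13 and 3 Foxp3 UMIs in GA-aFuc mice 2 and 3 and the N297A mouse.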

How the data were processed

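The deposited matrix of library 2 holds raw UMI counts for each feature and barcode. Per the file headers it was made with Cell Ranger 9.0.0, and the submitters' processing notes name the builds GRCh38 and GRCm39. A deposited table gives treatment, cell type and cluster per cell. How the authors clustered cells and treated doublets is not given, and doublets were not called here. Mice are runs of sorted barcodes. Hashtags checked them for 10476 of 10476 cells of library 2, and library 1 rests on the runs alone. Human features held 0.591% of UMIs.

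Shares were tested with edgeR 4.0.16 on cell counts (treatment and library terms, 12 mice). Expression was tested with edgeR (filterByExpr, TMM, quasi-likelihood) on counts summed per mouse and cluster (at least 10 cells), with all 4 treatments in 1 fit and Benjamini-Hochberg adjustment per cluster at 0.05. The SE is the log2 difference divided by the square root of F. The N297A mouse is assumed to vary like the treatments with 2 mice. CPM are TMM-scaled and computed here. DESeq2 1.42.0 and other settings are alternatives. The step was tested on simulated data. Whether mice shared a cage or litter is not given, and p-values rest on the spread between these mice. For expression that spread comes only from the GA-aFuc and GITR/Syn GA-aFuc pairs, and none of it from N297A mice. Xist was at 567 and 1.92 CPM in the GA-aFuc pair and at 551 and 1.98 CPM in the other, so each pair mixes the sexes.

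The members and gene lists were chosen with earlier results of these data known. Named genes are up to 20 called in the most clusters, the top 3 and bottom 3 by difference in each of the 8 clusters with the most calls, up to 2 per list with the smallest p, and a set of receptor, arginine and chemokine genes. Not all are described. Gene names in cluster descriptions, H2-Aa, Cd74 and Nos2 were chosen after their values were seen.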

Additional observations from a re-analysis of the deposited data

Results flagged for a closer look

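A few genes changed to a different extent in 1 cluster than in the rest of its cell type, by edgeR's test of that difference (log2 difference in the cluster minus that in the rest, GA-aFuc minus N297A). In monocyte cluster 0 the values were 2.55 for Ccl6, 1.09 for Clec7a and -1.27 for Cxcl9. In macrophage cluster 4 they were -2.35 for Ccl5 and 1.80 for Cxcl10. In monocyte cluster 21 they were -1.64 for Gadd45b and 1.41 for Ifit3b. In monocyte cluster 22 they were 2.20 for Arg1, -1.05 for Iigp1, -1.31 for Ly6c2 and -3.76 for Hspa1a, and 84.9% of the N297A UMIs of Hspa1a there came from 1 cell. In macrophage cluster 56, with 12, 12 and 15 cells, they were -2.05 for Ccl3, -2.31 for Ccl5, -2.39 for Cxcl2 and -5.55 for Ccl8. Xist was called in clusters 21, 25, 29, 45 and 56, and GA-aFuc mouse 2 is the 1 mouse of the 3 with Xist.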

How the results depend on the processing

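Of the 1613 alternative values for named genes, 1227 kept their direction and side of the threshold, 379 lost the call and 7 turned sign. With equal cells per mouse these were Ccl3 (0.19) and Ccl4 (0.40) in cluster 16 and Cd36 in cluster 21 (-0.015). With single mice left out, Cd36 in cluster 21 ranged from -0.29 (without GA-aFuc mouse 3) to 2.49, and, with the low end without GA-aFuc mouse 2, Cxcl9 in cluster 45 from -0.55 to 4.35 and Xist from 0 to 10.4 in cluster 21 and from -3.40 to 5.71 in cluster 45. As a share of the cell type 0 clusters were called, but cluster 50 is the only Treg cluster and could not be called there. Without GA-aFuc mouse 1 its call was lost, and leaving out single mice gave 0 to 1 calls. Calls were 52 higher and 4 lower with DESeq2, 851 and 206 with no filter on low counts, 95 and 23 with a stricter one, 1078 and 361 with only the 3 mice compared, and 60 and 11 with at least 30 cells per mouse. Without the clusters with 1 spread, chosen after seeing the data, 94 were higher, and adjusted over all clusters together 26 were lower. Leaving out single mice gave 241 to 1237 higher and 57 to 371 lower calls. The fits with more calls had 1 spread for all genes in many clusters: 33 of 37 without GA-aFuc mouse 2, 37 of 38 without GA-aFuc mouse 3, 27 of 40 with only the 3 mice compared and 37 of 40 with no filter. Of the named calls, DESeq2 kept 24 of 108. The cause of each change was not tested. Depth limits clusters with few cells, and no contrast can be made without the N297A mouse of library 2. No paired analysis was possible because replicate numbers only follow the order of the runs and pair no mice.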
